A study of Homo sapiens with 4 samples.

Results

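The genes described are 10 core genes of the NF-kB system, taken by name from the count table: the 5 Rel family subunit genes NFKB1, NFKB2, REL, RELA and RELB, and 5 genes that restrain or modify them, NFKBIA, NFKBIB, NFKBIE, TNFAIP3 and BCL3. All 10 are present among 28058 counted genes, and all 10 passed the filter on low counts, which left 12399 genes for the test. Poly(A) RNA was sequenced from cells labelled as the human neuroblastoma line SH-SY5Y. The shock wave treatment (SWT) group has 2 samples. The flasks of this group were filled with medium and immersed at 37 °C, with 7 cm between flask and applicator, for 300 pressure pulses of 0.08 mJ/mm2 at 3 Hz. The control group has 2 samples without treatment. All 4 samples are of a single line grown in the same serum-containing medium, and RNA was taken 6 h after SWT. The series design text names exosomes where the protocols describe treated cells, and this difference could not be resolved. No label ties the 2 samples of a group to different cultures, so the tests rest on a spread between samples that may be only technical.

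NF-kB factors are pairs of Rel proteins that bind kappa B sites in DNA. In resting cells most pairs are held in the cytoplasm by IkB proteins. A signal from a receptor such as TLR3, the receptor named in the series title, activates the IKK kinase complex, which marks IkB for destruction and frees the pair to enter the nucleus. Several genes of the system, NFKBIA and TNFAIP3 foremost, are themselves targets of NF-kB, so their transcripts are widely used as a readout of its activity. The activation step acts on proteins, which were not measured here.

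Stretches like the kappa B site lie before annotated starts of several of these genes, and they are shown because the family is known to act on some of its own genes. RefSeq promoter windows (GRCh38.p14) were matched by symbol for 8 of the 10 genes, all but RELB and NFKBIE. The 250 bases before each annotated start were searched on both strands for 2 motifs, GGG and TTCC with any 3 bases between them, and GGG and TTCCC with any 2 bases between them. The motifs were chosen after these promoters had been read, and a stretch can match both. A match was found for 6 of the 8 genes, NFKB1, NFKB2, REL, NFKBIA, NFKBIB and TNFAIP3, and for 9 of 20 other NF-kB target genes with a window, against 8.46% of all 27305 genes with a window. No match was found for RELA and BCL3. One stretch per gene follows, 5′ to 3′ on the strand of the gene, with the matched bases of that stretch alone in capitals. The first lower-case bases shown for TNFAIP3 belong to another match in its window.
NFKB1: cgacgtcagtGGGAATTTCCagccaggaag
NFKB2: aaacgtcatGGGAATTCCCCcctccgggg
REL: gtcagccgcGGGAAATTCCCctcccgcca
NFKBIA: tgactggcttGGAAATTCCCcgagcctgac
NFKBIB: ggcgtggtgGGGAATTTCCCgcagggcgg
TNFAIP3: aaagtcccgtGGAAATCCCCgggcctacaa

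These stretches are at chr4:102501300-102501329 (plus strand) for NFKB1, chr10:102394462-102394490 (plus) for NFKB2, chr2:60881518-60881546 (plus) for REL, chr14:35404811-35404840 (minus) for NFKBIA, chr19:38899932-38899960 (plus) for NFKBIB and chr6:137867194-137867223 (plus) for TNFAIP3. Against the gene bounds of GENCODE 29, the NFKBIA stretch lies upstream, those of NFKB1 and REL span the first base, and those of NFKB2, NFKBIB and TNFAIP3 lie inside. NFKB2 and TNFAIP3 have further stretches in their windows, and NFKB1, NFKB2 and NFKBIB have other annotated starts. A match describes letters only and shows no binding. NFKBIA has a single annotated start, and the whole 250 bases before it are given because its transcript is the classic feedback product.
NFKBIA, chr14:35404750-35404999, minus strand: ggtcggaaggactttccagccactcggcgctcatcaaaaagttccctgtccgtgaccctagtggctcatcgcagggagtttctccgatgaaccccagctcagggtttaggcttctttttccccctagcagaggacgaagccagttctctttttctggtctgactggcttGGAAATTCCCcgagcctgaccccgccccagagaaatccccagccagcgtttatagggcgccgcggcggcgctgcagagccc

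The 2 SWT libraries held 10043697 and 11686808 counts (replicates 1 and 2) and the 2 control libraries 11647603 and 9888263. Values are given as CPM, counts scaled to a common library size with TMM factors. The limit set by 3 counts lay between 0.258 and 0.303 CPM, for counting error only. The noradrenergic neuroblastoma markers TH, DBH, CHGA and DDC had no count in any library. Others of that list were expressed: HAND2, singled out after its values were seen, stood at 54.2 and 48.9 CPM in SWT and 52.4 and 52.8 CPM in control, GATA2 at 19.1 and 16.1 CPM in SWT and 13.2 and 15.4 CPM in control, and ISL1 at 5.26 and 4.98 CPM in SWT and 6.63 and 6.17 CPM in control. The noradrenergic list summed to 87.1 and 77.8 CPM in SWT and 81.8 and 82.6 CPM in control. Of the mesenchymal markers, 9 of 10 reached 10 CPM in every library, and that list summed to 12520 and 13452 CPM in SWT and 14166 and 13002 CPM in control. These sums are not per length. VIM, singled out after its values were seen, stood at 3230 and 3359 CPM in SWT and 3140 and 3289 CPM in control. COL1A2 was the exception, at 2.68 and 2.23 CPM in SWT and 2.41 and 4.65 CPM in control. Of 10 leukocyte markers, 8 stayed under 1 CPM in every library, and the defining marker PTPRC had 0 and 1 counts in SWT and 0 and 1 in control. The list summed to 79.3 and 77.6 CPM in SWT and 72.4 and 79.9 CPM in control, nearly all from CD68 and LCP1. Of 8 endothelial markers, 5 stayed under 1 CPM in every library, with sums of 2.68 and 2.32 CPM in SWT and up to 6.47 CPM in control, in replicate 2. Over 25 heart muscle genes, counts were 462 and 155 in SWT and 118 and 3994 in control, so control replicate 2 stood apart. That list leaves out ANKRD1, a choice made after its values were seen. The part of these transcripts in the NF-kB values was not tested; values without single libraries follow for the genes they moved most. In bulk RNA, fewer cells of a type and less RNA per cell cannot be told apart.

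All 10 genes were expressed in every library, at a lowest value of 14.3 CPM and a highest of 118 CPM. Together they took 5331 and 6385 counts in SWT and 6463 and 5396 counts in control. As a scaled sum this was 529 and 548 CPM in SWT against 557 and 546 CPM in control, and the groups overlapped.

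Levels of different genes were set side by side only per length, as CPM per kilobase of the union of exons in the basic set of GENCODE 29. NFKBIA, encoding IkB alpha, the fast-turnover inhibitor, was the highest, at 58.1 and 61.8 in SWT and 62.1 and 61.7 in control. RELA, the main transactivating subunit, came next, at 27.9 and 29.2 in SWT and 29.9 and 31.3 in control. NFKB1, whose precursor is processed to a DNA-binding partner of RELA, averaged 19.7 ± 0.543 CPM per kilobase, and NFKB2, its counterpart in the noncanonical pathway, 19.5 ± 0.740 (SD, n = 4). The ranges of NFKB1 and NFKB2 over the 4 libraries overlapped, so their order was not resolved.

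BCL3, an atypical nuclear IkB protein, followed at 15.8 ± 1.75 CPM per kilobase, RELB at 10.8 ± 0.877 and NFKBIB at 10.6 ± 1.08 (SD, n = 4). RELB and NFKBIB also overlapped. NFKBIE averaged 8.19 ± 0.458 CPM per kilobase, TNFAIP3 6.51 ± 0.663 and REL 1.47 ± 0.142 (SD, n = 4), and none of these overlapped its neighbours in the order. REL, a subunit best known from lymphoid cells, was the lowest per length, over 11255 bases of exon. Of these, 5702 are shared with AC010733.2, a noncoding gene on the same strand that was not analysed here, so the REL level is uncertain. In CPM, REL stood at 18.0 and 17.2 in SWT and 16.8 and 14.3 in control.

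**Figure D1:**
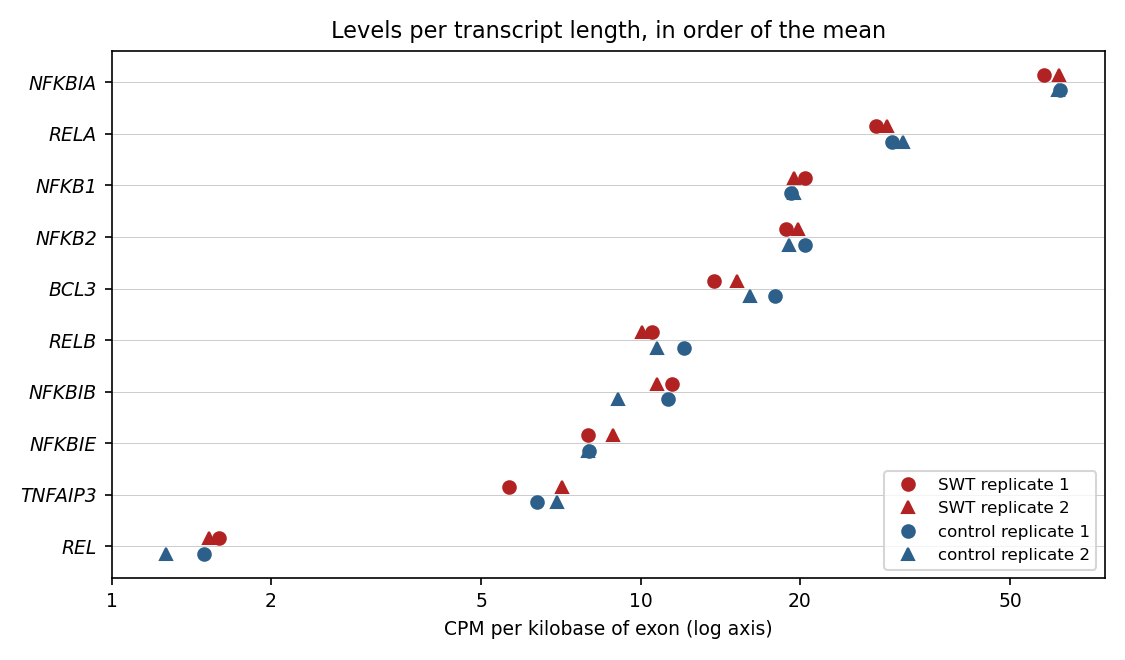
Levels of the 10 NF-kB genes per transcript length, in CPM per kilobase of exon on a log axis, with 1 point per library (SWT above control in each row). NFKBIA is highest at 58.1 to 62.1 and REL lowest at 1.27 to 1.60, and points of the same gene lie close together compared with the distance between most genes.

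Of the summed level per length, NFKBIA, NFKBIB, NFKBIE, TNFAIP3 and BCL3 together held 55.0% and 56.4% in SWT and 56.0% and 55.4% in control, and the groups overlapped. Without BCL3, which can also act as a coactivator, the sum was 47.2% and 48.1% in SWT and 46.4% and 46.6% in control. Here the groups did not overlap. BCL3 stayed in the total, however, at 7.82% and 8.29% in SWT and 9.51% and 8.78% in control. A lower BCL3 share by itself raises the others, so this separation does not show a rise of the other inhibitors. Shares with BCL3 also taken out of the total were not computed. NFKBIA alone held 32.9% and 33.6% in SWT and 32.9% and 33.6% in control. The 3 IkB genes NFKBIA, NFKBIB and NFKBIE together held 44.0% and 44.2% in SWT against 43.1% and 42.8% in control, groups that did not overlap. That total again included BCL3. The summed CPM of the 3 genes, not per length, was 155 and 163 in SWT and 163 and 157 in control, and those groups overlapped. The higher share therefore does not show a rise of IkB transcripts. RNA shares do not give protein ratios, and with 2 libraries against 2 the smallest two-sided exact permutation p is 0.333, so no test was made.

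The comparison of SWT with control asks whether transcripts of the NF-kB system differed 6 h after treatment. None of the 10 genes passed edgeR's quasi-likelihood test at an adjusted p of 0.05, beside 0 of 12399 genes tested (0%). At an unadjusted p under 0.05, edgeR had 1 of the 10 (BCL3, lower), limma-voom 1, DESeq2 0 and limma on the deposited log2 values 0. Over all genes, edgeR had 715 of 12399 at that level (5.77%), limma-voom 721 of 12399 (5.81%), and DESeq2 116 of 17737 (0.654%). For the deposited log2 table, limma had 847 genes at that level (4.94%). By value 4 of the 10 lay above 0 and 6 below, and their median was -0.038 on the log2 scale. Over all genes tested, 6161 of 12399 lay above 0 and the median was -0.00078.

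The groups did not overlap in 5 of the 10 genes, where 35.3% of all genes tested did not. In 2 of the 10 genes both SWT libraries lay above both controls (REL and NFKB1; 17.3% of all genes tested), and in 3 both lay below (RELA, RELB and BCL3; 18% of all). For 8 of the 10 genes the difference between the 2 SWT libraries or that between the 2 controls was larger than the group difference. Single libraries vary more than group means, and the larger of 2 differences was taken, so a high count is expected of any genes. The same share over all genes tested was not computed. The median size of the difference was 0.091 between the groups, 0.083 between the SWT libraries and 0.11 between the controls, on the log2 scale. Within a group, 1 of 10 differences between the SWT libraries (TNFAIP3) and 1 of 10 between the controls (NFKBIB) lay outside the 95% interval for counting error, which leaves out the variation between separate libraries. The 95% intervals of all 10 group differences lay within 0.5 log2 units of 0, and 9 of the 10 included 0.

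**Figure D2:**
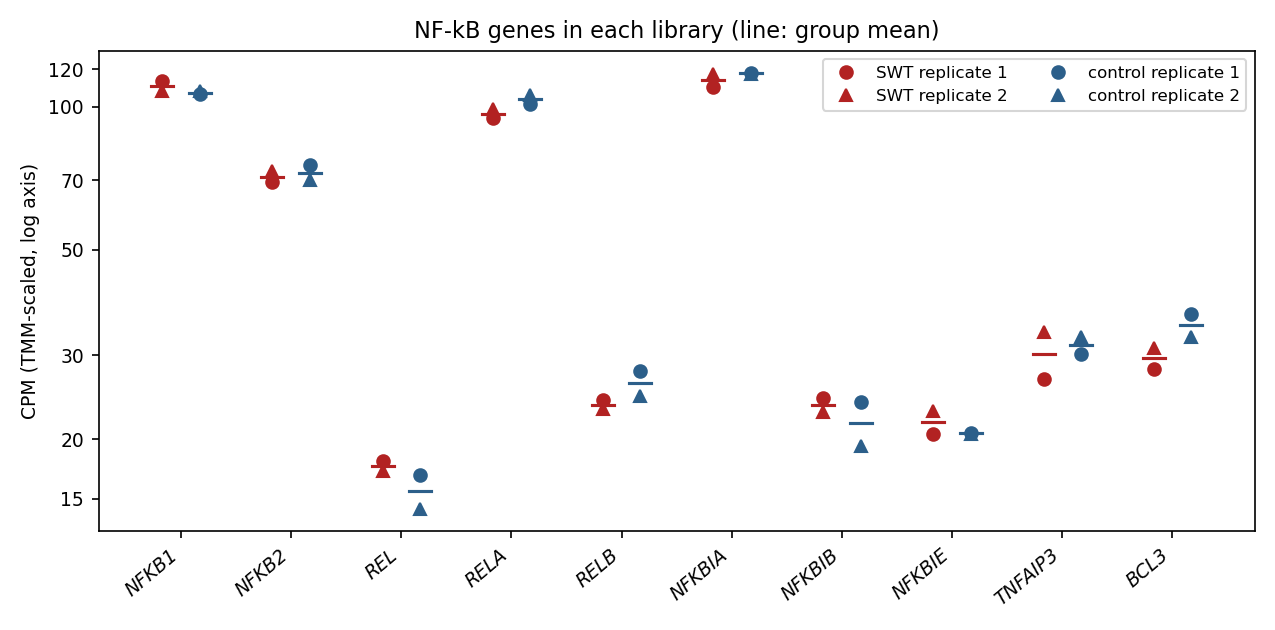
CPM of each NF-kB gene in each library on a log axis, SWT left of control, with circles for replicate 1, triangles for replicate 2 and a line for the group mean. SWT points lie below both control points for RELA, RELB and BCL3, above them for NFKB1 and REL, and overlap them for the other 5 genes.

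Among the subunits of the canonical pathway, RELA (chromosome 11, 65653596 to 65663094, minus strand) had 952 and 1152 counts in SWT and 1175 and 1049 in control. Scaled, this was 94.5 and 98.9 CPM in SWT against 101 and 106 CPM in control, and every SWT value was under both controls. RELA differed by -0.098 on the log2 scale (SE 0.064, 95% interval -0.23 to 0.036, edgeR adjusted p = 0.886). The interval allows 0.851 to 1.03 times the control level.

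NFKB1 (chromosome 4, 102501329 to 102617302, plus strand) had 1140 and 1257 counts in SWT and 1234 and 1066 in control. Its values of 113 and 108 CPM in SWT and 106 and 108 CPM in control were the tightest of the family, with a coefficient of variation of 2.76% over the 4 libraries. SWT replicate 2 lay above control replicate 2 by less than 0.1 CPM, so the groups barely separated. The log2 fold change was 0.045 (SE 0.062, 95% interval -0.086 to 0.18, edgeR adjusted p = 0.950). It was 0.011 without SWT replicate 1 and 0.081 without SWT replicate 2.

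REL (chromosome 2, 60881521 to 60931610, plus strand) had 181 and 200 counts in SWT and 195 and 141 in control. Both SWT values, 18.0 and 17.2 CPM, were above the controls at 16.8 and 14.3 CPM, and control replicate 2 lay farthest from the rest. REL differed by 0.17 on the log2 scale (SE 0.13, 95% interval -0.094 to 0.44, edgeR adjusted p = 0.902). It came to 0.064 when control replicate 2 was left out and to 0.30 when control replicate 1 was, each from a fit where the lone control is assumed to vary like the SWT libraries.

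In the noncanonical pathway, which runs through the kinase NIK and frees NFKB2 and RELB pairs, NFKB2 (chromosome 10, 102394110 to 102402529, plus strand) had 699 and 852 counts in SWT and 874 and 694 in control. Scaled values of 69.4 and 73.1 CPM in SWT overlapped 75.3 and 70.2 CPM in control. The log2 fold change was -0.030 (SE 0.070, 95% interval -0.18 to 0.12, edgeR adjusted p = 0.976).

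RELB (chromosome 19, 45001430 to 45038198, plus strand) had 243 and 270 counts in SWT and 323 and 244 in control. Its 24.1 and 23.2 CPM in SWT lay under 27.8 and 24.7 CPM in control, with SWT replicate 1 and control replicate 2 close to each other. RELB differed by -0.16 on the log2 scale (SE 0.10, 95% interval -0.37 to 0.063, edgeR adjusted p = 0.893). It came to -0.062 when control replicate 1 was left out and to -0.24 when control replicate 2 was. RELB is itself described as a target of NF-kB.

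Among the inhibitors, NFKBIA (chromosome 14, 35401511 to 35404749, minus strand) had 1111 and 1367 counts in SWT and 1370 and 1158 in control. At 110 and 117 CPM in SWT and 118 and 117 CPM in control, SWT replicate 1 was lowest and the groups overlapped. The log2 fold change was -0.046 (SE 0.062, 95% interval -0.18 to 0.085, edgeR adjusted p = 0.947). Its upper bound corresponds to 1.06 times the control level. The value was -0.0033 without SWT replicate 1, -0.092 without SWT replicate 2 and -0.011 with the length and GC trend removed.

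NFKBIB, encoding IkB beta (chromosome 19, 38899700 to 38908893, plus strand), had 246 and 266 counts in SWT and 278 and 191 in control. Values were 24.4 and 22.8 CPM in SWT and 24.0 and 19.3 CPM in control, so control replicate 2 alone was low. The 2 controls differed by -0.31 on the log2 scale (replicate 2 minus 1), with an exact interval of -0.58 to -0.039 for counting error alone. The group difference was 0.12 (SE 0.12, 95% interval -0.13 to 0.36, edgeR adjusted p = 0.928), and -0.021 without control replicate 2. Exons of SIRT2 on the opposite strand overlap it by 40 bases, and the strand setting of the counting was not given in the sources used here. Exons of noncoding genes on the opposite strand also overlap TNFAIP3 by 95 bases and RELA by 9. On the same strand, MIR8085 overlaps BCL3 by 65 bases.

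NFKBIE, encoding IkB epsilon (chromosome 6, 44258166 to 44265788, minus strand), had 207 and 267 counts in SWT and 239 and 203 in control. The controls were alike, at 20.6 and 20.5 CPM, and the SWT values were 20.6 and 22.9 CPM. NFKBIE differed by 0.083 on the log2 scale (SE 0.11, 95% interval -0.15 to 0.31, edgeR adjusted p = 0.942) and -0.00014 without SWT replicate 2.

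TNFAIP3, a ubiquitin-editing enzyme that shuts off signalling upstream of IKK (chromosome 6, 137867188 to 137883312, plus strand), had 269 and 392 counts in SWT and 350 and 325 in control. The SWT libraries gave the lowest and the highest value of all 4, 26.7 and 33.7 CPM, with the controls at 30.2 and 32.9 CPM between them. Their difference of 0.33 on the log2 scale (replicate 2 minus 1) had an exact interval of 0.11 to 0.56 for counting error alone. The group difference was -0.053 (SE 0.11, 95% interval -0.28 to 0.18, edgeR adjusted p = 0.972), and 0.096 without SWT replicate 1.

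BCL3 (chromosome 19, 44747705 to 44760044, plus strand) had 283 and 362 counts in SWT and 425 and 325 in control. The SWT values of 28.1 and 31.1 CPM lay under both controls, at 36.6 and 32.9 CPM. Its log2 fold change of -0.23 (SE 0.095, 95% interval -0.43 to -0.031) was the only interval of the 10 that left out 0, and it did not pass (edgeR adjusted p = 0.838). About 3.10% of all tested genes had an unadjusted p as small. The value came to -0.15 when control replicate 1 was left out and to -0.31 when control replicate 2 was, and adjusted p-values ran from 0.125 to 1.00 over the alternatives.

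**Figure D3:**
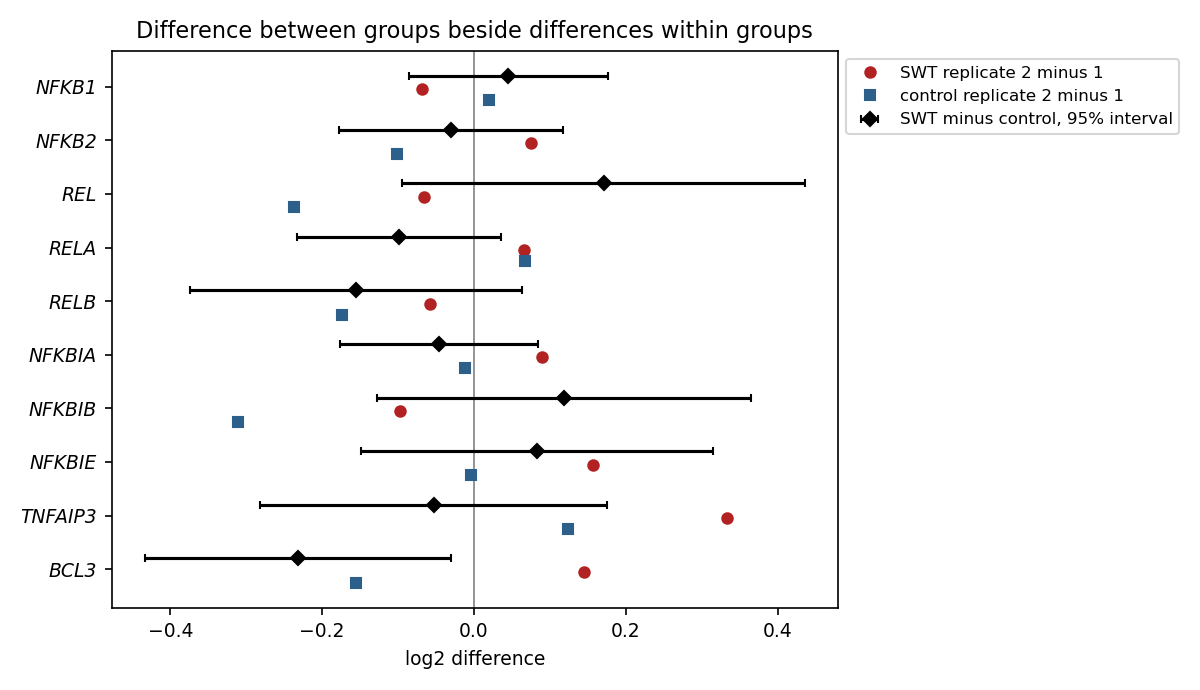
Log2 differences for each NF-kB gene: black diamonds show SWT minus control with the 95% interval from edgeR, red circles SWT replicate 2 minus 1 and blue squares control replicate 2 minus 1. Differences within a group reach 0.33 for TNFAIP3 in SWT and -0.31 for NFKBIB in control, and only the BCL3 interval leaves out 0.

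GC content moved with these values. For 6293 genes with a mean log2 CPM above 5 and a GC value, Spearman's rho between GC content and SWT minus control was -0.403. It is a description across genes of the same 4 libraries, which are not independent replicates. Between the controls (replicate 2 minus 1) the same measure gave -0.483 and between the SWT libraries 0.381. The longest transcripts of BCL3 and RELB, the 2 lowest by value, have 67.4% and 65.4% GC, and that of REL, the highest by value, has 38.7%. After removal of a trend on length and GC content from each library, BCL3 stood at -0.18, RELB at -0.10, RELA at -0.050, REL at 0.11 and NFKB2 at 0.025. NFKBIB and NFKBIE, at 60.5% and 61.0% GC, went the other way, at 0.17 and 0.14. No gene of the 10 passed in that fit either.

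**Figure D4:**
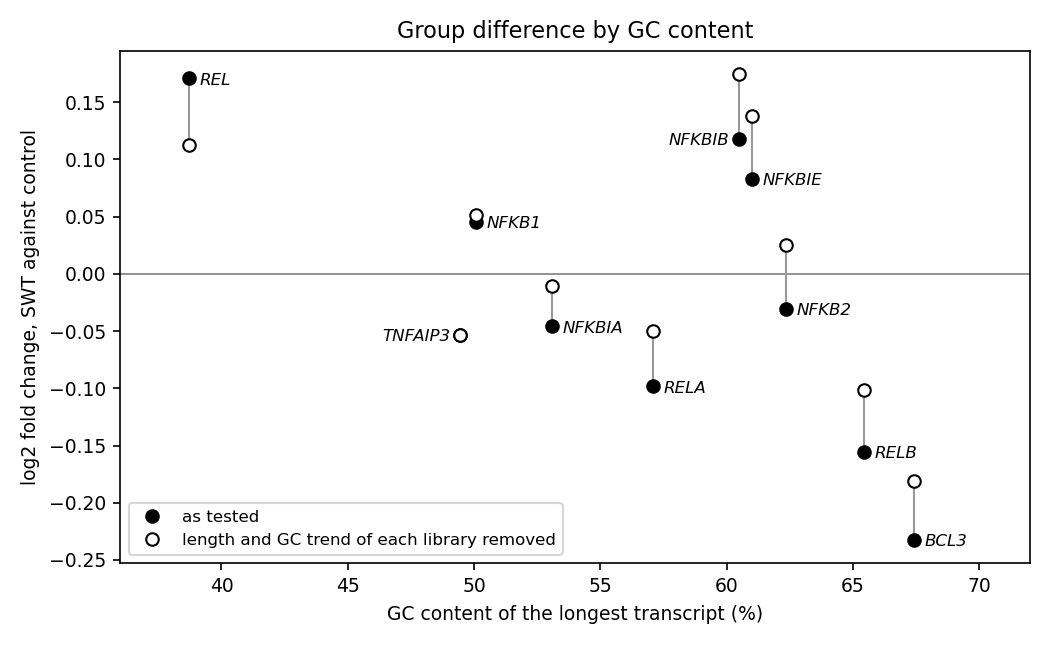
Log2 fold change (SWT against control) of each NF-kB gene against the GC content of its longest transcript, as tested (filled) and with each library's length and GC trend removed (open), joined by a line. Removal brings BCL3, RELB, RELA and REL closer to 0 and moves NFKBIB and NFKBIE away from it, and TNFAIP3 at 49.5% GC does not visibly move.

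The rest of the pathway was read from lists of known members, written with earlier results of these data known. No gene of any of these lists passed edgeR's test over all genes. The IKK complex and upstream kinases had 11 of 14 tested genes above 0 and 3 below, with a median of 0.035. TAB2, an adaptor of the TAK1 kinase, stood at 202 and 198 CPM in SWT and 184 and 192 CPM in control, or 0.088 on the log2 scale (SE 0.058; edgeR adjusted p = 0.893). RIPK1, the kinase at the TNF receptor, stood at 48.9 and 49.6 CPM in SWT and 46.4 and 46.3 CPM in control, or 0.089 on the log2 scale (SE 0.075; edgeR adjusted p = 0.912). In both genes the 2 SWT libraries lay above the controls, which held for 3 of the 14 tested genes of the list and 17.3% of all tested genes.

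Of the ubiquitin machinery, 11 of 17 tested genes lay above 0 and 6 below, with a median of 0.017. BIRC2, a ubiquitin ligase of TNF receptor complexes, stood at 61.9 and 60.8 CPM in SWT and 51.4 and 62.8 CPM in control. SHARPIN, a subunit of the linear ubiquitin chain assembly complex, stood at 28.0 and 31.7 CPM in SWT and 34.5 and 31.6 CPM in control. The groups overlapped for both, at log2 fold changes of 0.11 and -0.14.

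Other IkB-like proteins and negative regulators had 8 of 15 tested genes above 0 and 7 below, with a median of 0.023. TNIP1, a partner of TNFAIP3, stood at 132 and 151 CPM in SWT and 156 and 155 CPM in control, or -0.14 on the log2 scale (SE 0.067; edgeR adjusted p = 0.843). PDLIM2, a ubiquitin ligase for nuclear RELA, stood at 31.4 and 31.4 CPM in SWT and 34.4 and 35.2 CPM in control, or -0.15 on the log2 scale (SE 0.087; edgeR adjusted p = 0.870). SWT was under both controls for these genes. Of the 15, both SWT libraries lay below both controls in 2 (18% of all tested genes) and above both in 2 (17.3% of all). The 2 above, named after their values were seen, were OTULIN, a linear ubiquitin deubiquitinase, at 36.9 and 36.8 CPM in SWT and 34.4 and 34.4 CPM in control, and RNF11, a partner of TNFAIP3, at 82.5 and 80.7 CPM in SWT and 78.1 and 77.3 CPM in control.

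Receptors and adaptors had 8 of 17 tested genes above 0 and 9 below, with a median of -0.0038. TLR3 stood at 21.5 and 19.3 CPM in SWT and 19.7 and 18.6 CPM in control. Those values overlapped, at 0.087 on the log2 scale (SE 0.11; edgeR adjusted p = 0.941). TLR6 stood at 9.13 and 8.84 CPM in SWT and 7.32 and 7.38 CPM in control, or 0.29 on the log2 scale (SE 0.16; edgeR adjusted p = 0.853). TRADD, the adaptor of TNF receptor 1, stood at 10.5 and 11.2 CPM in SWT and 14.0 and 12.0 CPM in control, or -0.27 on the log2 scale (SE 0.14; edgeR adjusted p = 0.845).

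Among target genes of NF-kB outside the 10, 4 of 19 tested genes lay above 0 and 15 below, with a median of -0.087. In 9 of the 19 both SWT libraries lay below both controls, where 18% of all tested genes did so, and in 0 both lay above. VCAM1, an adhesion molecule for leukocytes, stood at 31.8 and 37.8 CPM in SWT and 41.3 and 42.7 CPM in control, or -0.27 on the log2 scale (SE 0.091; edgeR adjusted p = 0.838). CXCL8, a neutrophil chemokine, stood at 21.0 and 22.1 CPM in SWT and 22.3 and 28.8 CPM in control, or -0.23 on the log2 scale (SE 0.12; edgeR adjusted p = 0.845). The controls differed from each other by a median of 0.12 over these genes (replicate 2 minus 1), more than the groups did. Leaving out SWT replicate 1 put the target median at -0.077, and leaving out SWT replicate 2 at -0.12. Leaving out control replicate 1 put it at -0.097, and leaving out control replicate 2 at -0.026. It was -0.055 with the length and GC trend removed. TNF, CCL5 and SELE had no count in any library.

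**Figure D5:**
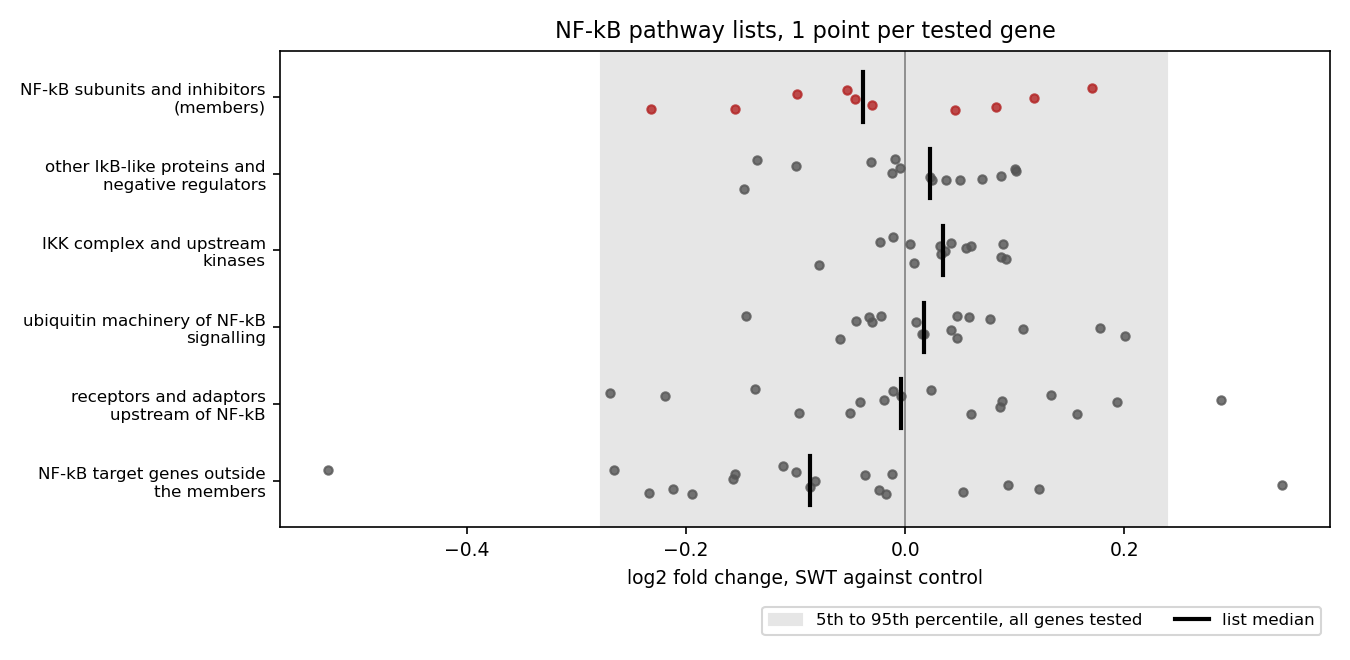
Log2 fold changes (SWT against control) of the tested genes of 6 NF-kB lists, with 1 point per gene, a bar at each list median and a grey band from the 5th to the 95th percentile of all tested genes (-0.28 to 0.24). All 10 core genes (red) lie within the band, and the lowest median is that of the target genes at -0.087.

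Across the 4 libraries, the genes most like NFKBIA by the root mean square difference of centred log2 CPM were MTFR1L at 0.0026, PCNX3 at 0.0039 and PDAP1 at 0.0052 of 6323 genes with a mean log2 CPM above 5. As many as 1731 genes lay within 0.05 of it. Within the family NFKB2 came nearest, at 0.033, followed by RELA at 0.039, NFKB1 at 0.074 and BCL3 at 0.11, and the other members were under that abundance limit.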

How the data were processed

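Raw counts by gene symbol, as deposited by the authors, were tested. Their deposited log2 values for 17151 genes served only as an alternative. For 6318 genes the group differences in that deposited log2 table were on average 0.377 times those of log2 CPM, so its differences are smaller. The submitters' processing notes list Trimmomatic 0.36, FastQC 0.11.5, STAR 2.5.3a, HTSeq, DESeq2 and the build hg38, with no roles. Per the labels' protocols the library kit was stranded. Neither annotation nor strand setting of the counting is given in the sources used here.

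Counts were tested with edgeR 4.0.16 (R 4.3.3): TMM factors (0.997 to 1.00), filterByExpr by group, quasi-likelihood F-test, Benjamini-Hochberg adjustment over 12399 genes, threshold 0.05. Each standard error is the size of the log2 fold change divided by the root of its F. Log2 CPM values used a prior count of 2. The alternatives used DESeq2 1.42.0 and limma 3.58.1. Coordinates and lengths are from GENCODE 29 on GRCh38 (the hg38 assembly), and 97.4% of tested genes had a length and GC value. The plots used matplotlib 3.10.9. The 10 genes, the lists and the tests were chosen with earlier results of these data known. All 10 are described; of each other NF-kB list the text names the 2 genes with the smallest p, any with an unadjusted p under 0.05, and TLR3. The edgeR step was tested on simulated counts, in 5 simulations. It recovered 46.2% of changes of 1.25-fold, 75.9% of 1.5-fold and 83.4% of 2-fold. No smaller change was simulated, so small differences can be missed.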

Additional observations from a re-analysis of the deposited data

How the results depend on the processing

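None of the 10 NF-kB genes passed under any alternative run, leaving out each library included. The alternatives were other scalings, filters and tools, the deposited log2 values, robust empirical Bayes, no heart muscle genes, removal of the length and GC trend, blocks by replicate number, a threshold of 0.1 and, chosen after seeing the data, a crossed pairing. Over all genes the count of 0 did move. No filter gave 20 higher and 43 lower, and removal of the length and GC trend gave 1 higher. Leaving out each library gave 2 to 106 higher and 15 to 97 lower. The replicate block gave 0 higher and 1 lower, and with the trend removed 27 higher and 16 lower. Same-numbered deviations correlated at -0.283, so nothing shows that the numbers pair the samples, and the crossed pairing gave 55 higher and 42 lower. The causes were not tested. Signs turned for 4 genes. NFKB2 stood at 0.025 with the length and GC trend removed, 0.024 with the replicate block as well, and -0.077 to 0.025 without single libraries. NFKBIB ranged from -0.021 to 0.29 without single libraries, NFKBIE from -0.00014 to 0.16 and TNFAIP3 from -0.24 to 0.096. The other 6 kept their direction under every alternative run. The median of the 10 was 0.0070 with the trend removed and 0.0085 without SWT replicate 1, against -0.038. Dividing by the longest transcript instead of the exon union raised NFKBIA to 74.3, RELA to 31.5, NFKB1 to 26.6 and NFKB2 to 21.1 CPM per kilobase and left the order as it was. REL, NFKBIB, NFKBIE and RELB, with under 350 counts per library, have the widest counting error.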
